A study of Mus musculus with 48 samples.

Results

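The nuclear genes of oxidative phosphorylation were examined in whole blood and in the medial prefrontal cortex (mPFC) of female mice that had been ovariectomized, stressed, or both. Members were taken by name, without any measured value: every array probe other than control probes whose gene name began with Ndufa, Ndufb, Ndufc, Ndufs, Ndufv, Uqcr, Cox4, Cox5, Cox6, Cox7, Cox8 or Atp5, or was Sdha, Sdhb, Sdhc or Sdhd. This gave 134 probes for 90 gene names, of 55681 probes and 34844 gene names on the array. Complex I had 42 of the names, complex II 4, complex III 8, complex IV 19 and complex V 17. The name rule also takes in genes that are not subunits of the complexes, namely the assembly factors Ndufaf1 to Ndufaf4 and the genes Cox4nb, Cox7a2l, Atp5s and Atp5sl.

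All mice were C57BL/6J females, 17 weeks old, with 6 mice in each of 4 groups and 1 array for each mouse and tissue, 48 arrays in all. Control mice had a sham operation and no stress, CUMS mice had a sham operation and chronic ultra-mild stress (CUMS), OVX mice had a bilateral ovariectomy (OVX) and no stress, and OVX+CUMS mice had both. Every mouse was therefore operated on, and the stress, a repeated weekly schedule of mild stressors such as cage tilt, soiled bedding and disturbed lighting, ran for 6 weeks and began 2 weeks after surgery. The RNA of blood came from the pellet of all blood cells, red cells included, and blood and mPFC of the same number within a group came from the same mouse.

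Oxidative phosphorylation is carried out by protein complexes of the inner mitochondrial membrane. Complexes I and II feed electrons from NADH and succinate into the chain, complex III passes them to cytochrome c, complex IV gives them to oxygen, and complex V makes ATP from the resulting proton gradient. Most subunits are encoded in the nucleus and imported, while a few core subunits are encoded in mitochondrial DNA. Neurons depend heavily on this pathway, whereas mature red cells lose their mitochondria and immature red cells still hold them and their transcripts.

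A probe's level was its log2 signal minus the 75th percentile of its array, so every difference below is relative to that percentile. A gene was read from its brightest detected probe in that tissue, and brightness is a property of the probe, not an amount of transcript. In blood 83 of the 90 genes were detected on all 24 arrays, and in mPFC 88. The genes not detected in blood were Atp5s, Cox4nb, Cox7b2, Cox8b, Cox8c, Ndufa4l2 and Ndufab1, of which Cox8b, Cox8c and Ndufa4l2 were well above background on 0 of 24 blood arrays. Cox8b, the muscle form of subunit 8, and Cox8c, its testis form, also missed the detection rule in mPFC, with 23 and 2 of 24 arrays above background.

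The 75th percentile itself differed between groups in blood, where its signal was 54.9 to 105 for CUMS mice, below the 110 to 192 of OVX mice, and 81.3 to 144 in the control and OVX+CUMS mice. In mPFC it was 572 to 689 over all arrays. Between 23578 and 34838 probes per blood array and between 31551 and 38053 per mPFC array were well above background, and no spot was saturated. The arrays of each tissue lay on 3 slides: all 6 control and 2 of the CUMS arrays were on slide 1, the other 4 CUMS arrays with 4 OVX arrays on slide 2, and all 6 OVX+CUMS arrays with 2 OVX arrays on slide 3. Control and OVX+CUMS mice thus shared no slide, and slide and group can only partly be told apart. Slides also differed within a group, by limma with adjusted p under 0.05. Among CUMS mice, slides 2 and 1 differed in 17.1% of all genes in mPFC and 0.0368% in blood. Among OVX mice, slides 3 and 2 differed in 0.443% in mPFC and 6.17% in blood. Among tissue markers, the hemoglobin gene Hba-a1 had a median signal of 571439 in blood and 11371 in mPFC, and the neuronal kinase gene Camk2a 709 in blood and 15521 in mPFC. The neuronal gene Snap25 set the tissues apart less, with 16081 in blood and 55259 in mPFC. It was above background on all 24 blood arrays. These signals are not relative to the 75th percentile, which was lower in blood. One OVX+CUMS blood array had a mean neutrophil marker level of 3.17 over 9 detected genes, as a deviation from each probe's mean over the tissue. The range was -0.76 to 0.60 in the control, CUMS and OVX mice.

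Promoters of 4 members are shown because they stand for both directions of change seen in blood: Uqcrc1 and Sdhd were higher with OVX, and Cox6a1 and Atp5l were lower. Each runs from 250 bases before to 50 after the start site in RefSeq annotation of build GRCm38.p6, 5′ to 3′ on the gene's strand, and capitals mark matches to the motifs searched other than the TATA box, which Atp5l holds in lower case. The positions are chr9:108936398-108936697 on the plus strand for Uqcrc1, and on the minus strand chr9:50603800-50604099 for Sdhd, chr5:115348909-115349208 for Cox6a1 and chr9:44920693-44920992 for Atp5l.
Uqcrc1: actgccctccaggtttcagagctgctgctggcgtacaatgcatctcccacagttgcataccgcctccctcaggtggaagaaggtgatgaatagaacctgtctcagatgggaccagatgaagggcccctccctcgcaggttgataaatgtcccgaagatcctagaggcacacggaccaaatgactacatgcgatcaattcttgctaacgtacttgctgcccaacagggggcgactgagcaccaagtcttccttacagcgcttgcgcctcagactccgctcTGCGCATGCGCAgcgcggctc
Sdhd: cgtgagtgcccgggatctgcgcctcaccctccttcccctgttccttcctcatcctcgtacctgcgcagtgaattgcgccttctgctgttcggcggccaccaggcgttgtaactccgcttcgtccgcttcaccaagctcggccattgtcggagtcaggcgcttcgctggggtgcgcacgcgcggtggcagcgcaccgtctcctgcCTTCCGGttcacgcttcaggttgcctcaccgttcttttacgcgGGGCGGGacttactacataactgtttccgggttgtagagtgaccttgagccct
Cox6a1: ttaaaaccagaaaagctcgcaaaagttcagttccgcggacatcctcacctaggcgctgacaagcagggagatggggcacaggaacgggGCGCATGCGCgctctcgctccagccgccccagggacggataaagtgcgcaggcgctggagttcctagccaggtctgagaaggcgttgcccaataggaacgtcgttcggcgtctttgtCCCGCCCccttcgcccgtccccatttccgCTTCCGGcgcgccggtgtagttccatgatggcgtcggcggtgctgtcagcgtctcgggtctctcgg
Atp5l: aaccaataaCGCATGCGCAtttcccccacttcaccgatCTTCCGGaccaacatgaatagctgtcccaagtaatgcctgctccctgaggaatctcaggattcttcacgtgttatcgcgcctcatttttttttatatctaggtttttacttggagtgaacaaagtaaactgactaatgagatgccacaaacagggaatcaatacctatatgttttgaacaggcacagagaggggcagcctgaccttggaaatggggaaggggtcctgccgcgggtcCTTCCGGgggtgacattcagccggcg

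The motifs, searched on both strands, included the NRF1 palindrome (the first capitals in Cox6a1) and an NRF1 core that overlaps it. In Atp5l the first capitals are the reverse complement of the core, and in Uqcrc1 both motifs are merged. The others were the ETS motif CCGGAAG bound by GABP, AAGATGGCG of YY1, GGGCGGG of SP1, and the TATA box TATAAA. NRF1, the GABP complex and YY1 are known regulators of nuclear genes for mitochondria. Of the 90 members, 74 had a promoter in the table, and the NRF1 palindrome was in 8.11% of them against 0.971% of all 32851 promoters of the same length. The core was in 6.76% against 1%, the ETS motif in 21.6% against 8.86%, the YY1 motif in 9.46% against 1.4%, the SP1 motif in 36.5% against 25.6% and the TATA box in 9.46% against 13.6%. Both sets that moved with OVX in blood held these letters: of the 26 promoters of genes that rose, 7.69% had the NRF1 palindrome and 23.1% the ETS motif, and of the 15 of genes that fell, 13.3% and 40%. These are 2 and 6 promoters in each set, and a match is a match of letters only.

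In blood, 29 of the 83 genes rose with OVX and 18 fell, by limma's test of the OVX main effect with adjusted p under 0.05 over all detected probes. Among all 16304 genes tested, 56.3% were called, 27.9% higher and 28.4% lower, so the share of members called was close to the share of all genes. With CUMS the split was turned: 8 rose and 34 fell, against 49.1% of all genes called, 19% higher and 30.1% lower. The median change over the 83 genes was 0.09 with OVX and -0.13 with CUMS on the log2 scale, and 0.05 and -0.03 over all genes. Both effects are estimated from the same 24 mice, and the CUMS mice and the OVX mice enter them with opposite signs.

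Slide and scaling bear on all of these counts. The OVX calls in blood were 0 with slide as a block (5 at an unadjusted p under 0.05), while the CUMS calls were again 42, 8 higher and 34 lower. With arrays scaled to the spike-in RNAs instead of their 75th percentile, every OVX change in blood moved up by 0.35. Every CUMS change moved down by 0.30. This turned the counts to 57 higher and 2 lower with OVX and to 1 and 51 with CUMS. The median over all genes was then 0.39 with OVX and -0.33 with CUMS. The split with OVX was 46 higher and 12 lower with normexp background correction and 38 and 13 with quantile normalization.

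**Figure D1:**
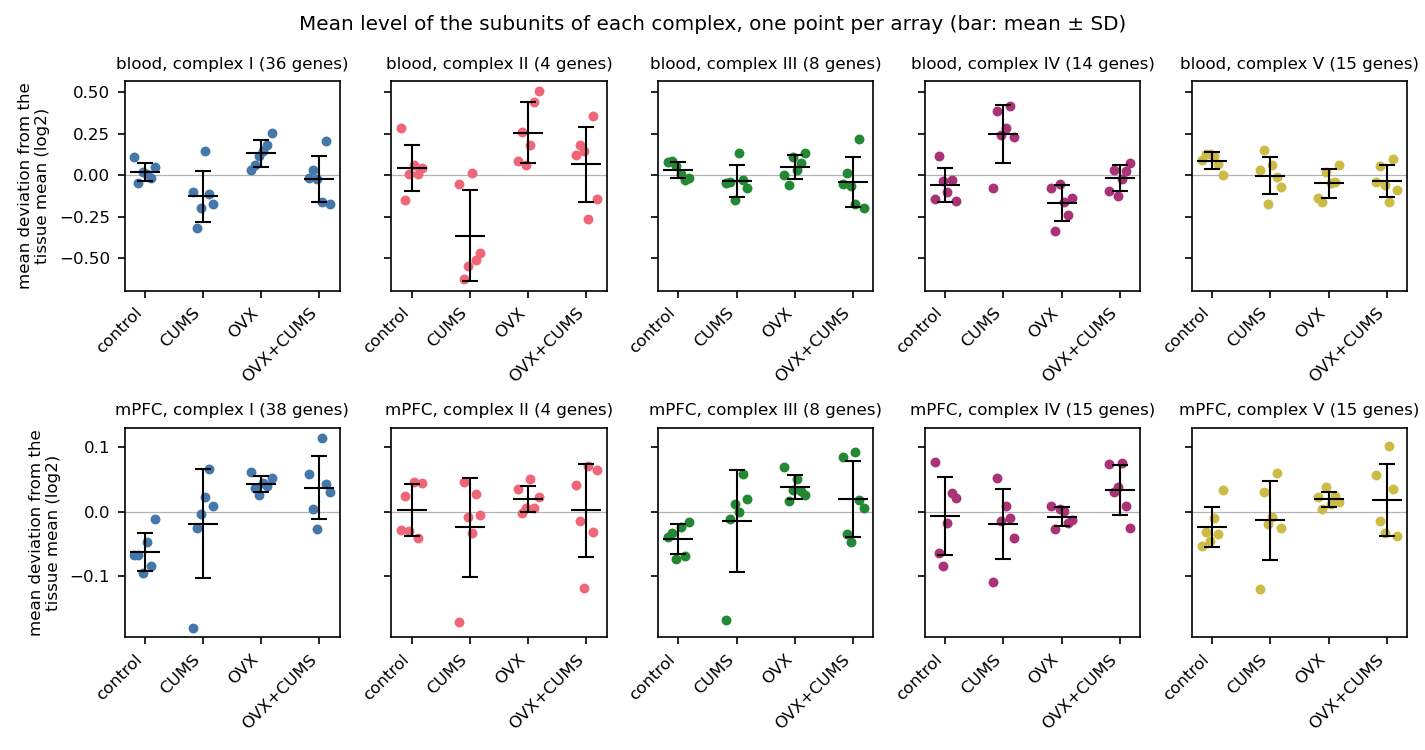
Each point is 1 array: the y axis is the mean of the subunits of 1 complex, as a log2 deviation of each probe from its mean over the tissue, by group (x axis), with blood above and mPFC below and a bar for the mean and SD of 6 arrays. In blood the complex II mean was -0.36 in CUMS and 0.26 in OVX mice and the complex IV mean 0.25 and -0.17, while the mPFC values lie closer to 0.

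The complexes did not move alike. Complex II was highest in OVX mice and lowest in CUMS mice, and complex IV the other way round. The mean level of the complex II subunits, as a log2 deviation from the mean of each probe over the tissue, was 0.04 ± 0.14 (SD, n = 6) in control, -0.36 ± 0.27 in CUMS, 0.26 ± 0.18 in OVX and 0.06 ± 0.23 in OVX+CUMS mice. The mean level of the complex IV subunits was -0.06 ± 0.10 in control, 0.25 ± 0.18 in CUMS, -0.17 ± 0.11 in OVX and -0.02 ± 0.08 in OVX+CUMS mice. The complex II means of CUMS and OVX mice did not overlap, with a highest value of 0.01 in CUMS mice and a lowest of 0.06 in OVX mice. The difference between the median change of complex II and that of complex IV was 0.45 with OVX, 0.33 to 0.58 over the alternatives, and -0.45 with CUMS, -0.67 to -0.37, which includes slide as a block (0.37 and -0.67). It does not depend on the constant subtracted from an array. Complex and probe brightness were not separated, and the direction of change went with brightness, as given below. The 10 members with a mean blood signal above 8000 included Cox6a1, Cox6c and Cox8a but no complex II gene. The part of brightness in the difference was not tested.

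All 4 subunits of complex II, succinate dehydrogenase, which also acts in the tricarboxylic acid cycle, were higher with OVX, and 3 of 4 were lower with CUMS. Sdhb, the iron-sulfur subunit, had levels of 3.97, 4.19 and 4.35 in control (lowest, median and highest), 3.29, 3.80 and 4.28 in CUMS, 4.22, 4.41 and 4.76 in OVX and 4.11, 4.29 and 4.65 in OVX+CUMS mice. The CUMS mice lay lowest, and 5 of the 12 ovariectomized mice were above every sham-operated mouse. The OVX effect of Sdhb was 0.39 ± 0.09 (SE, limma adjusted p = 0.0017) and the CUMS effect -0.25 ± 0.09 (adjusted p = 0.031). Its OVX effect was -0.02 with slide as a block, and its CUMS call was lost on leaving out any of 5 arrays. With slide as a block the OVX median of complex II was 0.13 in place of 0.31, and the CUMS median -0.42 in place of -0.26. Sdha, the flavoprotein, changed by 0.30 ± 0.08 with OVX and -0.27 ± 0.08 with CUMS. The membrane anchor Sdhc changed by 0.26 ± 0.11 and -0.42 ± 0.11, and 7 of the 12 stressed mice had less of it than any unstressed mouse. The other anchor, Sdhd, rose by 0.33 ± 0.13 with OVX, and its CUMS effect of -0.26 ± 0.13 did not pass (adjusted p = 0.098). The OVX calls of Sdhc and Sdhd were lost on leaving out any of 15 and 9 of the 24 arrays.

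Without slide in the fit, complex I followed complex II with smaller changes. With slide as a block its OVX median was -0.03 with 0 genes called. Its CUMS median was then -0.27, with 0 genes higher and 21 lower. Of its 40 detected genes, 17 rose and 5 fell with OVX (median 0.17), and 1 rose and 21 fell with CUMS (median -0.20). Its catalytic core, the peripheral arm that takes electrons from NADH through flavin and iron-sulfur clusters, contributed to both counts: Ndufs1, Ndufs3, Ndufs8 and Ndufv2 rose with OVX, and Ndufs3, Ndufs7, Ndufs8 and Ndufv1 fell with CUMS. Ndufs8 had levels of 1.02, 1.10 and 1.36 in control, 0.19, 0.89 and 1.20 in CUMS, 1.33, 1.51 and 1.68 in OVX and 0.78, 1.03 and 1.26 in OVX+CUMS mice. All OVX mice lay above all CUMS and OVX+CUMS mice, 5 of them above every control mouse too, and 7 of 12 stressed mice lay below every unstressed one. The OVX effect of Ndufs8 was 0.29 ± 0.10 (limma adjusted p = 0.014) and the CUMS effect -0.42 ± 0.10 (adjusted p = 0.0027). Ndufv2, which rose by 0.38 ± 0.09 with OVX, and Ndufa10, which rose by 0.36 ± 0.08, had the lowest adjusted p of the complex I genes that rose (limma, 0.0014 and 0.0013). The genes of complex I that fell with OVX were the accessory subunits Ndufa1, Ndufa3, Ndufa4, Ndufa13 and Ndufb9, and Ndufa3 was the gene that rose with CUMS (0.18 ± 0.07). Ndufa4 is now often counted with complex IV. The assembly factors Ndufaf1, Ndufaf3 and Ndufaf4 rose with OVX (0.26 to 0.28) and fell with CUMS (-0.43 to -0.26).

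In complex III, 3 of 8 genes rose and 1 fell with OVX (median -0.03), and 3 fell with CUMS (median -0.02). The genes that moved both ways were Uqcrc1, a core subunit, Uqcrfs1, the Rieske iron-sulfur protein, and Uqcrb. Uqcrc1 had levels of 1.78, 1.87 and 2.06 in control, 1.28, 1.38 and 1.89 in CUMS, 1.98, 2.12 and 2.29 in OVX and 1.59, 1.89 and 2.31 in OVX+CUMS mice. All OVX mice exceeded all CUMS mice, while OVX+CUMS mice spread over the range of the controls and beyond. Its OVX effect was 0.32 ± 0.09 (limma adjusted p = 0.0053) and its CUMS effect -0.30 ± 0.09 (adjusted p = 0.0093). The hinge protein Uqcrh was the gene that fell with OVX (-0.46 ± 0.12).

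Complex IV, cytochrome c oxidase, had 0 of 15 genes higher and 6 lower with OVX (median -0.14), and 5 higher and 2 lower with CUMS (median 0.19). With spike-in scaling its median changes turned to 0.21 with OVX and -0.11 with CUMS, with 6 genes higher and 1 lower with OVX, while it was still the lowest of the complexes with OVX and the highest with CUMS. The genes that fell with OVX were Cox6a1, Cox6b2, Cox6c, Cox7a2, Cox7b and Cox8a, all small accessory subunits. Cox6a1 had levels of 8.26, 8.67 and 9.0 in control, 8.64, 9.05 and 9.51 in CUMS, 7.93, 8.19 and 8.81 in OVX and 8.13, 8.30 and 8.66 in OVX+CUMS mice. The medians of both ovariectomized groups lay below those of both sham-operated groups, with overlapping ranges, and its OVX effect was -0.51 ± 0.11 (limma adjusted p = 0.0012). Cox6b2, the testis form of subunit 6b, fell by 0.60 with OVX (SE 0.14) and rose by 0.35 ± 0.14 with CUMS, a call that was lost on leaving out any of 13 arrays. Its ubiquitous relative Cox6b1 changed by 0.08 ± 0.08 and 0.04 ± 0.08, neither called. The larger nuclear subunits Cox4i1, Cox5a and Cox5b, which surround the catalytic core made in the mitochondrion, did not pass with OVX, and Cox5b alone passed with CUMS (-0.18 ± 0.07), on a probe placed on chromosome 15 where RefSeq has the gene on chromosome 1. For 81 of the 83 members the chromosomes of probe and gene were the same.

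Complex V, the ATP synthase, split evenly with OVX, with 5 of 16 genes higher and 6 lower, and with CUMS 2 were higher and 5 lower. Its catalytic beta subunit Atp5b had levels of 7.43, 7.58 and 7.87 in control, 7.70, 7.87 and 8.47 in CUMS, 7.06, 7.30 and 7.40 in OVX and 7.39, 7.57 and 7.74 in OVX+CUMS mice. All OVX mice lay below all sham-operated mice, and the OVX+CUMS mice overlapped the controls. The OVX effect of Atp5b was -0.38 ± 0.08 (limma adjusted p = 0.00079) and its CUMS effect 0.32 ± 0.08 (adjusted p = 0.0041). The alpha subunit Atp5a1 fell by 0.22 with OVX (SE 0.07), and this turned to 0.05 with normexp and 0.13 with spike-in scaling, while the gamma subunit Atp5c1 rose by 0.25 ± 0.07. The genes for the membrane ring, Atp5g1, Atp5g2 and Atp5g3, encode the same mature subunit c: Atp5g3 changed by 0.42 ± 0.10 with OVX and -0.32 ± 0.10 with CUMS, Atp5g1 was called with OVX (0.20 ± 0.08) and Atp5g2 with CUMS (-0.25 ± 0.06). The g subunit Atp5l had 6 detected probes, all lower with OVX (-0.47 to -0.34), but the array's annotation places the brightest of them on chromosome X and RefSeq the gene on chromosome 9.

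Atp5j2, the f subunit of the membrane part, had the largest OVX change among the members in blood. Its levels were 9.09, 9.38 and 9.83 in control, 8.15, 8.77 and 10.49 in CUMS, 7.16, 7.65 and 8.28 in OVX and 8.33, 8.82 and 9.14 in OVX+CUMS mice. Every OVX mouse was below every control mouse, and CUMS mice spread from below to above the control range. The OVX effect was -1.0 ± 0.19 (limma adjusted p = 0.00044), and the interaction of 1.38 did not pass (adjusted p = 0.064). The other detected probe of Atp5j2 gave an OVX effect of -0.24. The brighter probe in blood matches the annotated chromosome of the gene (build mm9, chr5:145948011-145948070), and its sequence is shown so that the transcript it reads can be traced. The other probe is placed on chromosome 9 by the array's annotation. In mPFC the probe placed on chromosome 9 was the brighter of both and gave the gene's values there (OVX effect 0.07 ± 0.03).
Atp5j2 probe: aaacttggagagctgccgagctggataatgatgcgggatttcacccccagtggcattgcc

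**Figure D2:**
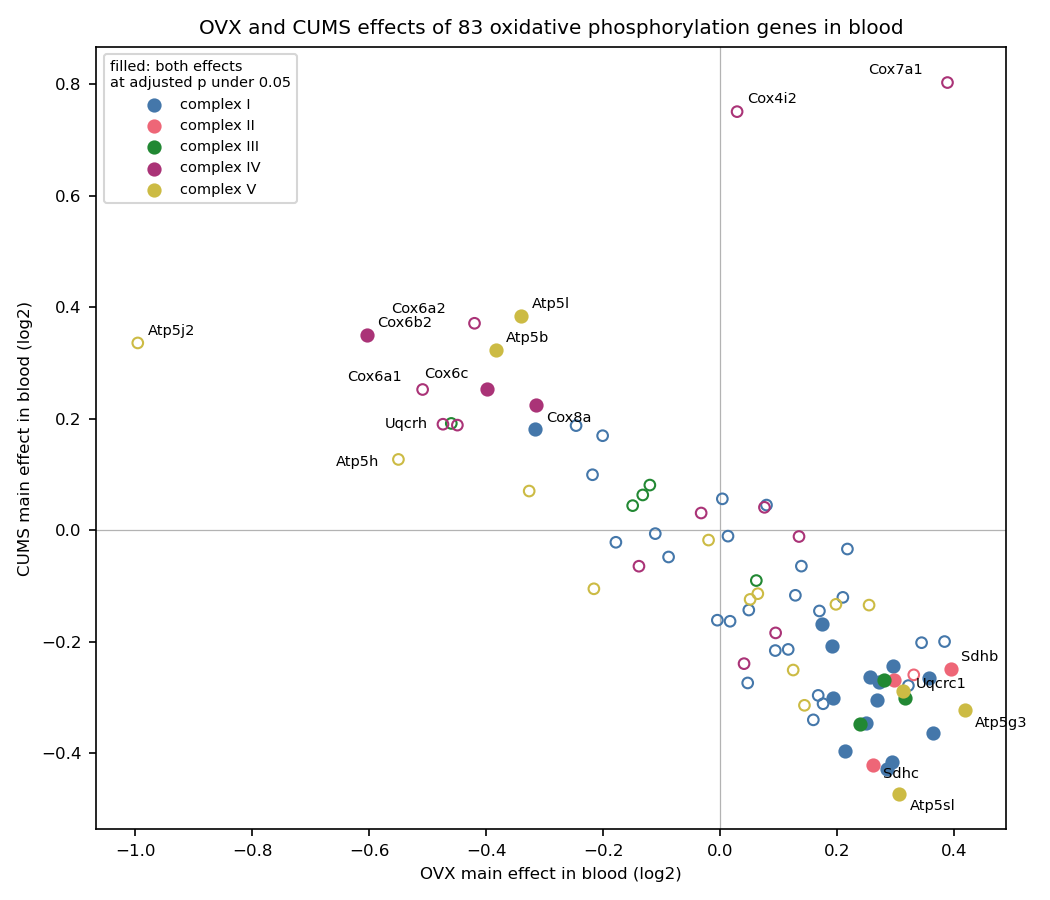
Each point is 1 of the 83 members detected in blood, with its OVX main effect on the x axis and its CUMS main effect on the y axis (both log2), coloured by complex and filled where both effects passed the test. Complex II genes lie at lower right, several complex IV genes at upper left, Atp5j2 farthest left (-1.0) and Cox4i2 (0.75) and Cox7a1 (0.80) at the top.

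The direction of change went with the brightness of the probe. All 10 members with a mean blood signal above 8000 fell with OVX (median -0.39), and 5 of them rose with CUMS. Of the 16 members with a signal under 500, 10 rose and 0 fell with OVX, and 1 rose and 9 fell with CUMS. Of the 34 members between 500 and 2000, 14 rose and 2 fell with OVX, and 1 rose and 19 fell with CUMS. The 23 members between 2000 and 8000 had 5 higher and 6 lower with OVX, and 1 higher and 6 lower with CUMS. Over all genes above 8000, 12.4% rose and 47.3% fell with OVX, and 20.6% rose and 28% fell with CUMS. Under 500 these shares were 29.3% and 25.4% with OVX, and 20.5% and 29.8% with CUMS. Between 500 and 2000 they were 31.3% and 28.3%, and 15.3% and 32.7%. Between 2000 and 8000 they were 20.3% and 38.7%, and 14.8% and 27.7%. Across the 83 members, Spearman's rho between level and change was -0.65 with OVX and 0.53 with CUMS, against -0.06 and -0.08 across 16304 genes, as a description of genes measured on the same arrays. The bright members were Atp5b, Atp5h, Atp5j2, Atp5l, Cox6a1, Cox6c, Cox8a, Ndufa3, Ndufa13 and Uqcrh. With spike-in scaling 2 members fell with OVX. The signal at the 75th percentile was highest in OVX mice and lowest in CUMS mice, and its part in the pattern was not tested.

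**Figure D3:**
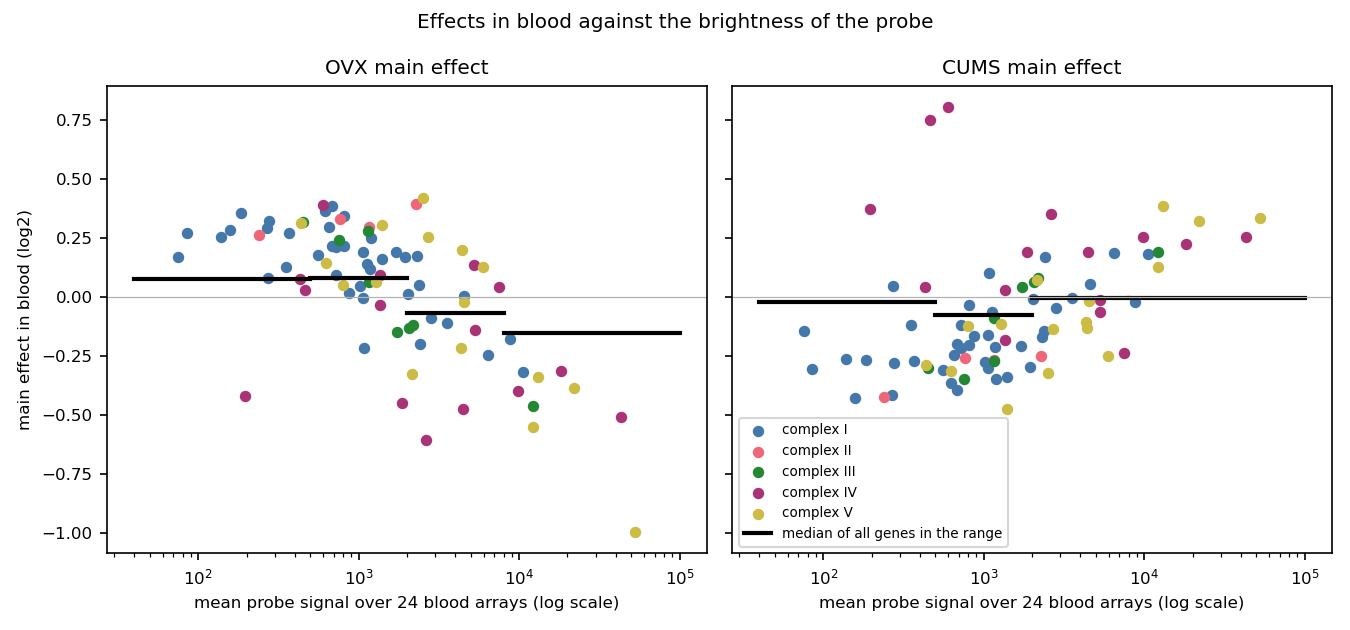
The x axis is the mean signal of a member's probe over 24 blood arrays (log scale), and the y axis its OVX effect (left) or CUMS effect (right) in log2, with a black line for the median of all genes in each signal range. The 10 members above a signal of 8000 all lie below 0 with OVX.

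Slide 2 allows CUMS and OVX mice, 4 of each, to be compared on a single slide. In the full comparison of CUMS with OVX mice, 18 of 83 members were higher in CUMS mice and 41 lower, against 72.4% of all genes called, 34% higher and 38.4% lower. With spike-in scaling 1 was higher and 62 lower, where the median over all genes was -0.68 in place of -0.03. Within slide 2, 13 were higher and 23 lower, against 53.2% of all genes. By complex, 2 were higher and 11 lower in complex I, 0 and 4 in complex II, 1 and 3 in complex III, 7 and 0 in complex IV, and 3 and 5 in complex V. The changes within the slide were -0.68 ± 0.16 for Sdhc, -0.44 ± 0.15 for Sdhb, -0.66 ± 0.16 for Ndufs8, 0.77 ± 0.25 for Cox6b2, 0.63 ± 0.19 for Cox6a1, 0.66 ± 0.12 for Atp5b and 1.08 ± 0.18 for Atp5j2. Relative to the 75th percentile, complex II was thus lower and complex IV higher in CUMS than in OVX mice on the same slide. In the full comparison the complex IV median was 0.54, with 8 of 15 genes higher and 2 lower. With spike-in scaling it turned to -0.11, with 0 higher and 5 lower, and was still above the median of all genes (-0.68). Within slide 2, 7 of the 10 bright members were higher and 0 lower.

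Among the forms of complex IV subunits known from particular tissues, Cox4i2 and Cox7a1 rose with CUMS. Cox4i2, the form of subunit 4 known from lung and induced by low oxygen, had levels of 1.33, 1.52 and 1.95 in control, 1.67, 2.38 and 2.64 in CUMS, 0.91, 1.68 and 2.11 in OVX and 2.16, 2.34 and 2.68 in OVX+CUMS mice. All but 1 of the 12 stressed mice were above every unstressed mouse. The CUMS effect was 0.75 ± 0.13 (limma adjusted p = 0.00073), 0.53 with slide as a block (adjusted p = 0.020) and 0.45 with spike-in scaling (adjusted p = 0.015), and the difference within slide 2 was 0.94 ± 0.24. The common form Cox4i1 changed by -0.01 ± 0.08 with CUMS and was not called.

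Cox7a1, the heart and skeletal muscle form of subunit 7a, had levels of 0.82, 1.80 and 2.08 in control, 1.43, 2.38 and 3.26 in CUMS, 0.83, 2.18 and 2.65 in OVX and 2.51, 2.80 and 3.09 in OVX+CUMS mice. In 7 of 12 stressed mice it exceeded every unstressed mouse. The CUMS effect was 0.80 ± 0.23 (limma adjusted p = 0.0081), but 0.28 with slide as a block (adjusted p = 0.43) and 0.51 with spike-in scaling (adjusted p = 0.13), and neither of these passed. The ubiquitous form Cox7a2 changed by 0.19 ± 0.10 with CUMS and was not called. Cox6a2, the muscle form of subunit 6a, changed by 0.37 ± 0.18 (adjusted p = 0.087). A striated muscle list chosen after these values were seen had 3 of 6 genes detected. Its mean level, as a deviation from each probe's mean over the tissue, ran highest in CUMS mice (-0.09 to 0.36, mean 0.21). It was -0.35 to 0.10 for controls, -0.23 to 0.09 for OVX and -0.33 to 0.30 for OVX+CUMS mice. Its member Acta1, skeletal muscle actin, had a mean level of -0.51 in CUMS mice and -1.31 in controls. In OVX mice the Acta1 mean was -1.20 and in OVX+CUMS mice -1.15, while Cox7a1 had its highest median in OVX+CUMS mice. The mean signal of Acta1 was low, 44.1 in control and 63.7 in CUMS mice. The muscle genes Ckm and Mb were above background on 0 arrays in each group. Of a fat cell list chosen in the same way 1 of 7 was detected, the lipid droplet gene Cidec. As a deviation from its mean over the tissue it was -0.87 to -0.14 in control mice, below its 0.15 to 0.91 in mice with both treatments. With CUMS alone it was -1.27 to 1.15. Its mean signal was low, 26.5 in control and 58.8 in OVX+CUMS mice. The part of such cells in these results was not tested.

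The sequences of the probes for Cox7a1 (build mm9, chr7:30970337-30970948, a span longer than the probe, which crosses a splice junction) and for Cox4i1 (chr8:123197924-123197983) are shown because each form has a close relative among the members, from which the probe's letters must tell it apart.
Cox7a1 probe: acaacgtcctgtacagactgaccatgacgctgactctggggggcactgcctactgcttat
Cox4i1 probe: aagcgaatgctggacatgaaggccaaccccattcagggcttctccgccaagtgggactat

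**Figure D4:**
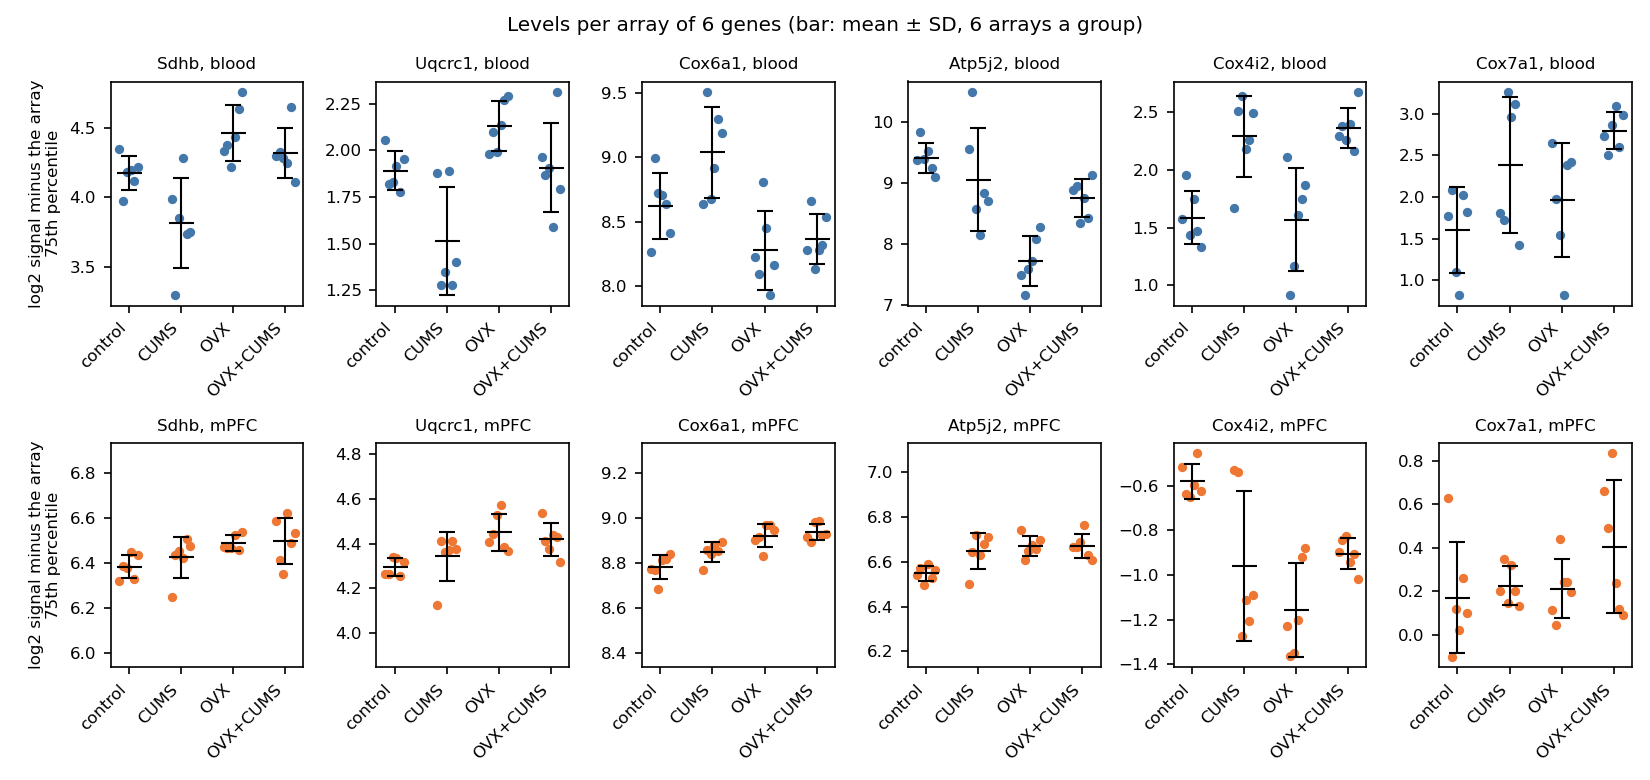
Levels of 6 genes on each array, as log2 signal minus the array's 75th percentile (y axis), by group (x axis), in blood and mPFC, with the mean and SD of 6 arrays as bars and a scale of its own for each panel (the Atp5j2 probe differs between the tissues). By group mean, Sdhb and Uqcrc1 were lowest in CUMS mice in blood, Cox6a1 was highest there, Atp5j2 was lowest in OVX mice, and Cox4i2 was higher in both stressed groups than in both unstressed ones.

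Few members differed in blood between mice with both treatments and controls. Against control mice, OVX+CUMS mice had 2 of 83 members higher and 1 lower, against 6.32% of all genes called, 4.08% higher and 2.24% lower. The members higher were Cox7a1, by 1.19 (limma adjusted p = 0.026), and Cox4i2, by 0.78 (adjusted p = 0.0083), and for each of them all 6 OVX+CUMS mice exceeded all 6 control mice (exact two-sided permutation p = 0.00216, the smallest that 6 against 6 can give). Atp5a1 was lower by 0.32 (adjusted p = 0.043, exact permutation p = 0.00433). With slide as a block 0 members were called, and 10 had an unadjusted p under 0.05. CUMS mice differed from controls in 6 members higher and 23 lower, against 30.5% of all genes, 11.3% higher and 19.2% lower. OVX mice differed in 3 higher and 4 lower, against 28%, 9.27% higher and 18.7% lower. The interaction of OVX and CUMS was called in 0 members, against 1.58% of all genes, and 14 had an unadjusted p under 0.05. Quantile normalization called 3, and normexp 1.

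Markers of some blood cell types moved with OVX and CUMS in opposite directions, and those of others did not. Of 9 erythroid markers, 7 fell and 0 rose with OVX, and 6 rose and 0 fell with CUMS. The mean erythroid level, as a deviation from each probe's mean over the tissue, was 0.14 to 1.13 for CUMS mice, against -0.83 to 0.19 for OVX mice. Of 8 B cell markers, 5 rose and 0 fell with OVX, and 0 rose and 7 fell with CUMS. The mean B cell level was 0.36 to 0.50 in OVX mice and -0.81 to -0.06 in CUMS mice, without overlap. Of 8 T cell markers, 5 fell with CUMS, and 0 rose and 1 fell with OVX. NK cell markers had 2 of 6 lower with OVX and 3 lower with CUMS. Neutrophil markers had 1 of 9 higher with each effect, and monocyte markers 1 of 5 higher with OVX and 1 lower with CUMS. Platelet markers had 2 of 9 lower with OVX and 0 called with CUMS. In bulk blood, fewer cells of a type and less RNA per cell cannot be told apart, and the part of cell composition in the changes of the members was not tested.

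Several other mitochondrial gene lists in blood had more genes higher than lower with OVX and the reverse with CUMS. Of 71 mitochondrial ribosome genes, 47 rose and 4 fell with OVX (median 0.26), and 2 rose and 52 fell with CUMS (median -0.29). Of 12 tricarboxylic acid cycle genes, 9 rose and 1 fell with OVX, and 9 fell with CUMS. Of 22 assembly factors and carriers of the respiratory chain outside the name rule, 11 rose and 3 fell with OVX, and 16 fell with CUMS. Of 10 regulators of mitochondrial biogenesis, 4 rose and 1 fell with OVX, and 6 fell with CUMS. Of 15 glycolysis genes, which work in the cytosol, 3 rose and 2 fell with OVX, and 2 fell with CUMS. The list of ATP and ADP exchange and uncoupling had 4 higher and 3 lower of 9 with OVX, and 3 higher and 4 lower with CUMS. Lists without a mitochondrial role moved too: of 37 proteasome genes 23 rose and 1 fell with OVX, and 1 rose and 25 fell with CUMS, and of 84 cytosolic ribosome genes 8 rose and 14 fell with OVX, and 1 rose and 53 fell with CUMS. Of 13 genes of mitochondrial DNA, a list set by the names on the array, 1 rose with OVX, and 7 fell with CUMS.

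In mPFC the changes were smaller, and their direction depended on the scaling. With OVX, 32 of 88 members rose and 4 fell, against 32.5% of all 20520 genes called, 19.8% higher and 12.8% lower. The median over the members was 0.06, and over all genes 0.04. By complex, 19 rose and 1 fell of 42 in complex I (median 0.09), 1 and 0 of 4 in complex II, 3 and 0 of 8 in complex III, 4 and 3 of 17 in complex IV and 5 and 0 of 17 in complex V. Under other scalings 22 rose and 8 fell with the percentile taken over detected probes, and 13 rose and 16 fell with quantile normalization. With spike-in scaling, which shifted every OVX change in mPFC by -0.13, 0 rose and 14 fell. The median was then -0.07 over the members and -0.09 over all genes. With slide as a block 0 were called, with a median of -0.00, and 4 had an unadjusted p under 0.05.

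Accessory subunits of complex I were among the members that rose most. Ndufa2, an accessory subunit of complex I, had levels of 5.83, 5.93 and 5.98 in control, 5.93, 6.07 and 6.13 in CUMS, 6.11, 6.15 and 6.16 in OVX and 6.13, 6.22 and 6.32 in OVX+CUMS mice. All but 1 of the 12 ovariectomized mice were above every sham-operated mouse, and the OVX effect was 0.19 ± 0.03 (limma adjusted p = 7.6e-05). Ndufa3 rose by 0.21 ± 0.04, Ndufb9 by 0.18 ± 0.03 and Ndufb8 by 0.17 ± 0.03. Cox4i1, the common form of subunit 4, had levels of 7.09, 7.15 and 7.27 in control, 7.18, 7.38 and 7.42 in CUMS, 7.36, 7.42 and 7.47 in OVX and 7.44, 7.47 and 7.49 in OVX+CUMS mice. The controls lay lowest and the OVX+CUMS mice highest, with 0.30 between their means (limma adjusted p = 3.1e-05, exact permutation p = 0.00216). Cox4i1 (0.11 ± 0.03) and Ndufa2 (0.10 ± 0.03) were also the members that rose with CUMS, 2 of 88 against 4.55% of all genes called, 2.49% higher and 2.06% lower. Each of these CUMS calls was lost on leaving out any of 20 of the 24 arrays.

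The members that fell with OVX in mPFC were Cox4i2 (-0.26 ± 0.08), Cox6b2 (-0.25 ± 0.08), Cox7c (-0.11 ± 0.03) and Ndufa8 (-0.07 ± 0.03). Cox4i2 had levels of -0.65, -0.61 and -0.45 in control, -1.28, -1.10 and -0.53 in CUMS, -1.36, -1.21 and -0.88 in OVX and -1.02, -0.90 and -0.83 in OVX+CUMS mice. The controls lay above both ovariectomized groups without overlap, but levels also differed by slide within a group. The 2 CUMS mice on slide 1 were at -0.53 and -0.54, and the 4 on slide 2 at -1.28 to -1.09. The 4 OVX mice on slide 2 were at -1.36 to -1.20, and the 2 on slide 3 at -0.92 and -0.88. Slide 1 held no ovariectomized mouse, so the difference from controls cannot be told apart from slide. Its interaction was 0.63 (limma adjusted p = 0.037) and, with that of Cox4nb (-0.21, adjusted p = 0.040), made up the 2 of 88 calls, against 4.67% of all genes. The interaction of Cox4i2 was -0.05 with slide as a block, and the calls of Cox4i2 and Cox4nb were lost on leaving out any of 14 and 17 arrays. With OVX in mPFC, 8 members had detected probes of opposite sign with a call, and 3 of them were called in both directions. These 3 were Cox7c (-0.11, 0.21 and -0.35), Atp5c1 (0.09 and -0.33) and Ndufv3 (0.11, 0.15 and -0.27). The others, called on a dimmer probe only, were Cox5b (-0.02 and 0.14), Sdhc (-0.05 and 0.20), Atp5g1 (0.04 and -0.20), Uqcrb (0.07, 0.03 and -0.13) and Uqcrq (0.03 and -0.13). The direction of these genes in mPFC was not settled.

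**Figure D5:**
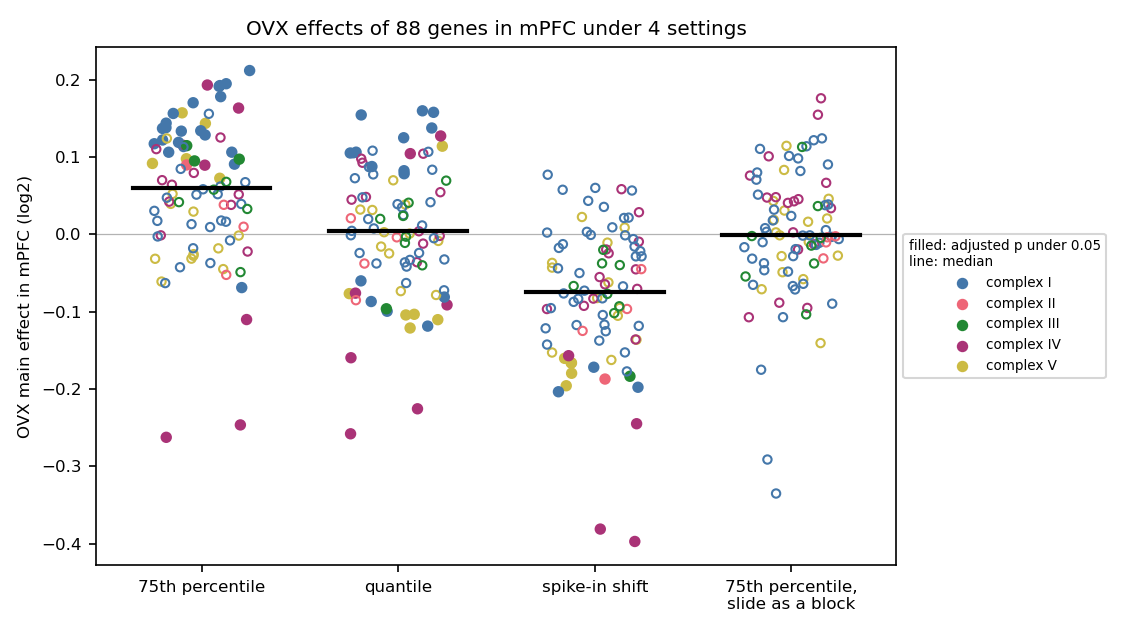
Each point is 1 of the 88 members detected in mPFC, with its OVX main effect in log2 (y axis) under 4 settings (x axis), filled where it passed the test, and the line is the median. The median was 0.06 with the 75th percentile, 0.00 with quantile normalization, -0.07 with spike-in scaling and -0.00 with slide as a block.

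OVX+CUMS mice had 29 members higher and 5 lower than controls in mPFC, against 35.2% of all genes called, 21.1% higher and 14.1% lower. OVX mice had 35 higher and 4 lower, against 35%, 20.5% higher and 14.6% lower. CUMS mice had 5 higher and 4 lower, against 18%, 8% higher and 10% lower. CUMS and OVX mice differed in 0 members by limma, against 0.2% of all genes, 0.0195% higher and 0.18% lower, and 13 members had an unadjusted p under 0.05. Within slide 2 the count was also 0, against 0.0439% of all genes, with 3 at an unadjusted p under 0.05. One CUMS mouse stood apart in mPFC: its mean was -0.18 for complex I, -0.17 for complex II and -0.17 for complex III, against medians of 0.00, -0.01 and 0.01 in CUMS mice. Without it the calls were 6 with CUMS, all higher, 31 with OVX and 10 for the interaction, 1 positive and 9 negative, and 42 between OVX+CUMS and control mice. Of the microglia markers 4 of 6 rose with OVX, and 1 of 8 neuronal, 0 of 6 astrocyte and 1 of 6 oligodendrocyte markers. Other lists rose in mPFC as well: with OVX 55 of 85 cytosolic ribosome genes rose and 3 fell, 29 of 76 mitochondrial ribosome genes rose and 1 fell, and 16 of 38 proteasome and 9 of 17 glycolysis genes rose and 0 fell.

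Blood and mPFC were compared within mice on the genes detected in both. The level was higher in mPFC for 76 of 83 members and higher in blood for 6, with a median difference of blood minus mPFC of -2.23, against 96.6% of 13993 genes called, 53.7% higher and 42.9% lower in blood, and a median of 0.38. The most negative differences were in complex I, with -3.62 for Ndufa5, -3.56 for Ndufc2 and -3.50 for Ndufs5. The genes higher in blood were Cox6b2 by 6.07, Atp5j2 by 3.45, Cox4i2 by 2.85, Cox7a1 by 1.93, Ndufa3 by 0.23 and Atp5l by 0.21. Ndufa1 was not called (-0.06).

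The OVX effect differed between the tissues in 37 members, 15 with a higher and 22 with a lower effect in blood, against 40.1% of all genes called, 20.7% higher and 19.4% lower. In complex II 3 were higher and 0 lower in blood, and in complex IV 0 and 6. The CUMS effect differed in 41, 7 higher and 34 lower in blood, against 52.6%, 17.8% higher and 34.8% lower, and in complex I 21 of these were lower and 0 higher. The OVX effect of Atp5j2 was lower in blood by 1.13 than in mPFC on the same probe (limma adjusted p = 4.2e-05), that of Cox6a1 by 0.62 (adjusted p = 7.4e-05), and that of Sdhb was higher by 0.30 (adjusted p = 0.010). The CUMS effect of Cox4i2 was higher in blood by 0.81 (adjusted p = 0.00012). With spike-in scaling 61 members differed between the tissues in the OVX effect and 20 in the CUMS effect. Cox5b was compared between the tissues on a probe that the array places on chromosome 1, as RefSeq does the gene.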

How the data were processed

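Blood and mPFC RNA of 24 mice was hybridized to 48 one-colour (Cy3) Agilent 8x60K mouse arrays, 1 for each mouse and tissue. Per the file headers, the deposited intensity values are the scanner software's processed signal, corrected for background and detrended within each array. The authors also deposited a log2 table shifted by the 75th percentile, and 100.0% of the 55249 probes with 1 spot lay within 0.001 of the same log2 values computed here, up to 1 constant for each array. Control spots were left out and repeated spots averaged, and the log2 signal was taken relative to the 75th percentile of the array. Detection in a tissue required a probe to be marked positive and significant and well above background, without an outlier mark, on all 24 arrays, and to exceed a signal of 50 on at least 2. In blood 20748 probes passed, and 28353 in mPFC. The number of arrays limits the precision.

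The 4 groups of a tissue were fitted together with limma 3.58.1 in R 4.3.3, and p-values were two-sided and adjusted by Benjamini-Hochberg over all detected probes of the tissue. The OVX effect is the mean of both ovariectomized groups minus that of both sham-operated groups, and the CUMS effect that of the stressed minus the unstressed groups. Tissues were compared on 17529 probes, blocking randomly on the mouse (correlation 0.059). For named genes, the contrast of OVX+CUMS with control mice, 6 against 6 arrays, was also given an exact two-sided permutation test. Probe genes are those of the array's annotation, on build mm9, and promoters are from RefSeq. Replicate numbers agreed between tissues of a mouse but did not pair mice across groups: same-number correlations of deviations from the group means ran from -0.51 to 0.49 in blood and from -0.23 to 0.39 in mPFC.

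The members, gene lists and tests were chosen with earlier results of these data known. Genes named with values were the subunits that hold redox centres, catalytic sites or carrier sites, the 2 with the largest rise and the 2 with the largest fall in each effect, tissue-specific forms with their relatives, and members called for an interaction, but 1 of these genes is counted and not reported here. Others named by a count, the brightest members and the fat cell and muscle lists were chosen after their values were seen. Alternatives changed the background correction, scaling, detection filter, source of values, probe choice, member set, spread, slide, block and arrays included.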

Additional observations from a re-analysis of the deposited data

Results flagged for a closer look

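Of 344 groups of 6 arrays examined (a named gene or a complex mean, in 1 group and tissue), 31 had an array far from the others by Dixon's criterion, which chance gives in about 1 in 20 groups. The mPFC array of CUMS replicate 1 accounted for 14 of them, more than any other array. It was lowest or highest in its group for the complex means of I (-0.18), II (-0.17) and III (-0.17) and for the levels of Atp5g2 (6.34), Atp5sl (3.87), Cox6b1 (3.46), Cox7a2 (5.84), Ndufs3 (5.51), Ndufs7 (5.82), Ndufs8 (3.13), Sdhb (6.25), Sdhd (4.62), Uqcrc1 (4.12) and Uqcrc2 (5.28). Other arrays of mPFC stood apart for Atp5a1 (7.22), Atp5sl (3.90) and Ndufa4 (5.59) in control mice, for Cox6a2 (2.60) and Ndufa4 (5.57) in OVX mice, and for Ndufa4 (6.05) and Ndufs1 (4.98) in OVX+CUMS mice.

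In blood, OVX+CUMS replicate 5, the array with the high neutrophil markers, stood apart for Atp5c1 (4.92), Cox4i1 (5.90) and Cox7a2 (4.14). Control arrays stood apart for Cox5a (4.83), Ndufa2 (5.00) and Ndufv2 (2.15), OVX arrays for Cox6b1 (1.80) and Ndufa4 (2.68), and CUMS arrays for Cox7a2 (4.97) and the complex IV mean (-0.078).

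The effect of OVX differed between blood and mPFC, by the tissue term of the limma fit, in 19 of the 40 named genes. The effect in blood minus that in mPFC, in log2, was positive for Atp5g3 (0.45), Ndufv2 (0.37), Ndufaf1 (0.35), Sdhc (0.31), Sdhb (0.30), Sdha (0.29), Uqcrfs1 (0.29), Atp5sl (0.28) and Ndufs3 (0.19). It was negative for Atp5j2 (-1.13), Cox6a1 (-0.62), Cox6a2 (-0.55), Ndufa3 (-0.53), Cox7a2 (-0.49), Cox8a (-0.40), Atp5b (-0.34), Ndufa2 (-0.31), Ndufa4 (-0.23) and Atp5a1 (-0.19).

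The effect of CUMS differed in 21 of the 40, of which 20 are given here. It was higher in blood for Cox4i2 (0.81), Cox7a1 (0.68), Cox6b2 (0.54), Atp5b (0.38) and Cox8a (0.19), of which all but Atp5b are forms of complex IV subunits. It was lower in blood for Atp5sl (-0.50), Ndufs8 (-0.44), Ndufaf1 (-0.40), Ndufv1 (-0.37), Atp5g1 (-0.36), Sdhc (-0.36), Ndufs3 (-0.34), Ndufs7 (-0.33), Uqcrc1 (-0.31), Atp5g2 (-0.28), Atp5g3 (-0.28), Sdhb (-0.28), Uqcrfs1 (-0.28), Sdha (-0.22) and Cox5b (-0.20).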

How the results depend on the processing

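Counts are of members called by limma, and those of complexes are median log2 changes. With slide as a block, 0 members were called in blood for OVX and for OVX+CUMS against control, and in mPFC 0 for OVX, CUMS, the interaction and OVX+CUMS against control, with 5, 10, 4 and 2 at an unadjusted p under 0.05 for OVX and OVX+CUMS in blood and OVX and CUMS in mPFC. The OVX medians of complexes I to V in blood were then -0.034, 0.13, -0.060, -0.24 and -0.051, the CUMS medians -0.27, -0.42, -0.092, 0.26 and -0.14, and the OVX effects turned for Atp5g3 (-0.067) and Sdhb (-0.020) in blood and for Atp5j2 (-0.0096, on the probe placed on chromosome 9), Ndufs7 (-0.016) and Sdhb (-0.0024) in mPFC, as did the interaction of Cox4i2 in mPFC (-0.050). With spike-in scaling, OVX+CUMS against control in blood gave 1, mPFC gave 14 for OVX, 20 for CUMS, all lower, and 0 for the interaction, and the tissue difference was called in 61 for OVX and 20 for CUMS. The OVX medians of complexes I to V in blood were then 0.52, 0.66, 0.32, 0.21 and 0.41, and the CUMS medians -0.50, -0.56, -0.32, -0.11 and -0.42, where the median of all genes was 0.39 and -0.33. Spike-in scaling turned the OVX effects in blood of Atp5a1 (0.13), Cox8a (0.034), Ndufa3 (0.033) and Ndufa4 (0.13), the CUMS effects in blood of Cox8a (-0.073) and Ndufa3 (-0.11), the OVX effects in mPFC of Atp5c1 (-0.043), Atp5g2 (-0.037), Atp5j2 (-0.062), Cox6a1 (-0.019), Cox8a (-0.045), Ndufs1 (-0.0060), Ndufv1 (-0.028), Sdhb (-0.045) and Uqcrc1 (-0.020), and the CUMS effects in mPFC of Cox4i1 (-0.014) and Ndufa2 (-0.021). Normexp gave 1 interaction in blood, OVX medians of 0.11, 0.016 and 0.17 for complexes III, IV and V, a CUMS median of -0.21 for complex V, and an OVX effect of 0.054 for Atp5a1 in blood. Quantile normalization gave 3 interactions in blood, an OVX median of -0.024 for complex IV and 1 CUMS call in mPFC, which was lower. Without a detection filter, blood gave 25 for CUMS, 1 for OVX+CUMS against control and an OVX median of -0.26 for complex IV, mPFC gave 0 for CUMS and 0 for the interaction, and the tissues differed in 24 for CUMS. All probes in place of 1 a gene gave 1 interaction and 89 calls for CUMS against OVX in blood, OVX medians of -0.13 and -0.16 for complexes III and V, 58 calls for OVX and 55 for OVX+CUMS against control in mPFC, and 60 tissue differences for OVX. The interaction in mPFC was called in 1 with subunits alone, with the percentile over detected probes and with probes detected on all 48 arrays, and in 0 with the replicate block. Within slide 2, CUMS against OVX in blood gave 36. The cause of these changes was not tested.

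Replicate numbers did not pair the mice: 3 of 24 blood arrays and 7 of 24 mPFC arrays were closest to their own number. With the replicate block the calls were 42 for OVX and 38 for CUMS in blood and 34 and 2 in mPFC, and it moved no other count of the main comparisons than the mPFC interaction by more than 1.5 times. The same held for leaving out the mouse as a block between tissues (36 for OVX, 41 for CUMS).

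Leaving out each array in turn gave, in blood, 37 to 55 calls for OVX, 30 to 48 for CUMS, 0 to 2 for the interaction, 1 to 4 for OVX+CUMS against control and 57 to 65 for CUMS against OVX, and in mPFC 29 to 39, 0 to 6, 0 to 10, 27 to 42 and 0. The interaction in blood was 2 without CUMS replicate 1 or 2 and 1 without OVX replicate 5 or 6, and OVX+CUMS against control in blood was 1 without control replicate 3 or 4 or OVX+CUMS replicate 4 or 6. In mPFC, 6 CUMS calls and 10 interactions came without CUMS replicate 1, and 4 interactions without CUMS replicate 2. OVX medians in blood ran from 0.12 to 0.20 in complex I, 0.28 to 0.35 in II, -0.05 to -0.01 in III, -0.21 to -0.11 in IV and 0.02 to 0.09 in V, and CUMS medians from -0.24 to -0.16, -0.31 to -0.24, -0.06 to -0.01, 0.13 to 0.24 and -0.14 to -0.10. The difference of complexes II and IV ran from 0.41 to 0.51 with OVX and from -0.52 to -0.38 with CUMS. Calls were lost without any of 12 arrays for Atp5g1 with OVX and Ndufa3 with CUMS in blood, 5 for Ndufaf1 with OVX and 2 for Cox5b with CUMS, and in mPFC with OVX without any of 11 for Atp5c1, 18 for Atp5j2 and Sdhb and 9 for Ndufs8.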
